A study of Mus musculus with 4 samples.

Results

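The genes described here encode calcium-dependent and glycan-binding proteins of the cytoplasm, membrane and cell surface: the S100 genes S100a4, S100a6, S100a10 and S100a11, the annexin genes Anxa1, Anxa2 and Anxa6, and the galectin genes Lgals1 and Lgals3. They were taken by name from the probe annotation, with every probe that carries the name, which gave 9 of the 32498 genes on the arrays and 17 probes on 35 spots per array. The rule used no measured value, but the genes were chosen with earlier results of these data known. The data are 4 single-colour Agilent mouse expression arrays, 1 for every pairing of genotype (WT or Nr4a-TKO) and stage (naive T or iTreg 3 h). All cells came from irradiated Rag2-/- mice reconstituted with C57BL/6J bone marrow. Nr4a-TKO cells carried floxed Nr4a1 and Nr4a2 alleles together with Nr4a3-/-, and were the Ly5.2+ cells of mixed chimeras that also received WT Ly5.1 marrow, whereas WT cells came from chimeras given WT marrow only. The Nr4a-TKO cells therefore developed beside WT Treg cells, and genotype cannot be told apart from the kind of chimera. Naive T cells were sorted from spleen and lymph nodes by surface markers of naive cells, among them CD4+, CD25 low and CD44 low, and as Foxp3-, with a human CD2 and CD52 knock-in at Foxp3 as the reporter. For iTreg 3 h, these cells spent 3 h on plate-bound anti-CD3 (2 µg/ml) and anti-CD28 (0.5 µg/ml) with anti-IFN-γ and anti-IL-4 (both 1 µg/ml), IL-2 (10 ng/ml) and TGF-β1, for which the labels give 0.2 or 0.5 ng/ml without saying which was used. Per the study's methods, mice of either sex were used at an age of 6 to 8 weeks, naive cells were sorted 6 weeks after the transfer of marrow, and the labels do not give the number of mice behind an array.

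S100 proteins are small EF-hand proteins that change shape when they bind calcium and then attach to partner proteins. Annexins bind acidic phospholipids of membranes in the presence of calcium, and several of them do so in a complex with an S100 protein, as Anxa2 does with S100a10 and Anxa1 with S100a11. Galectins bind β-galactoside sugars on glycoproteins and can cross-link receptors at the cell surface. In CD4+ T cells, S100a4, S100a6, S100a10, Anxa1, Anxa2, Lgals1 and Lgals3 are known for higher transcript levels in effector and memory cells than in naive cells.

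Values are log2 intensities after background correction and quantile normalization across the arrays, and a gene is represented by its brightest probe. With 1 array per group, no difference could be tested against a spread between replicates and no p-value is given. Within an array, the median SD over the spots of probes printed 5 times or more lay between 0.11 and 0.13, which makes an SD between 0.17 and 0.19 for a log2 difference between arrays. This SD covers the array alone and not mice, sorts or cultures. Between 64.9% and 67.6% of probes were well above background. The targeted genes did not all follow the genotype labels. Nr4a1 was 7.04, 8.38, 11.33 and 11.81 (in the order WT naive, Nr4a-TKO naive, WT at 3 h and Nr4a-TKO at 3 h, kept throughout), and Nr4a2 was 6.24, 6.43, 8.82 and 10.20, so that both were higher on the arrays labelled Nr4a-TKO. For Nr4a3 at 3 h, the array labelled Nr4a-TKO was lower by log2 differences of -1.85 and -1.46 at 2 probes and higher by 0.19 at its brightest probe. Which part of each transcript these probes read relative to the targeted exons was not analysed here, and directions between genotypes are those of the labels. The 8 T cell identity genes (among them Cd3e, Cd4 and Thy1) were detected throughout, and all 8 activation genes were more than 2-fold higher at 3 h in both genotypes.

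Of the 17 probes, 10 were well above background on the 4 arrays, 3 on some of them and 4 on none. The 4 probes never well above background were those of Anxa1, so 8 genes had a level. The 4 S100 genes lie on chromosome 3, Anxa1, Anxa2 and Anxa6 on chromosomes 19, 9 and 11, and Lgals1 and Lgals3 on chromosomes 15 and 14. Promoter sequences of RefSeq on GRCm38.p6, taken as the 250 bases before the annotated start, were at hand for 6 of the 9 genes, namely S100a4, S100a6, S100a11, Anxa1, Anxa2 and Lgals3. Those of S100a4, S100a6 and Anxa2 are shown here, to set beside the values that follow. Among the 6, S100a4 and S100a6 had the largest differences between the stages, and S100a4 and Anxa2 between the genotypes. S100a10 and Anxa6, which differed more between the stages than Anxa2, had no entry. S100a4 (chr3:90603520-90603769, plus strand) was the gene that differed most between the naive arrays, its neighbour S100a6 (chr3:90612644-90612893, plus strand) had a large difference between the stages and a small one between the genotypes, and Anxa2 (chr9:69453433-69453682, plus strand) was higher on the arrays labelled Nr4a-TKO. Capitals mark matches to any of the motifs searched on both strands.
S100a4: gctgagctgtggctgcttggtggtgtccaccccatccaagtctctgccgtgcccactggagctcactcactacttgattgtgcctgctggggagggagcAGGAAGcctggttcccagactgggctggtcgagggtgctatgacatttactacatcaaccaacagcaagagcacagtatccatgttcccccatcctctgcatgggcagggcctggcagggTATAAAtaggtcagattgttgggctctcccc
S100a6: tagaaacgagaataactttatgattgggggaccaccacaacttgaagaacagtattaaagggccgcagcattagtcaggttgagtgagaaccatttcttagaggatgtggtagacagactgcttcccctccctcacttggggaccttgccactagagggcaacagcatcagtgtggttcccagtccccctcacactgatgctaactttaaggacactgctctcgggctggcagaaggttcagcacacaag
Anxa2: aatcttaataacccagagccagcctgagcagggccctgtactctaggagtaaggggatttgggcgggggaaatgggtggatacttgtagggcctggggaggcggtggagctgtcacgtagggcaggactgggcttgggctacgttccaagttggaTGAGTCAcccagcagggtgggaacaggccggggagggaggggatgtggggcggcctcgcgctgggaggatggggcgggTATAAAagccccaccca
The motifs were AAAGGTCA, which Nr4a factors bind as monomers, AGGAAG, a core of Ets factor sites, TGANTCA, which AP-1 binds, and TATAAA, the TATA box. The S100a4 promoter held AGGAAG at 151 bases before the start and TATAAA at 31, with no overlap between them. The Anxa2 promoter held TGAGTCA at 95 bases and TATAAA at 17. In S100a6 and Lgals3 none of these letters were found in the window, S100a11 held TGAGTCA at 38 and 136 bases, and Anxa1 held TATAAA at 32. No member with an entry held AAAGGTCA. Over all 32536 promoters of this length, AAAGGTCA was present in 1.35%, AGGAAG in 29.6%, TGANTCA in 6.73% and TATAAA in 12.3%. A match is a stretch of letters and not a shown binding site.

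The first question was how these genes differed between naive T cells and the same kind of cells after 3 h under iTreg conditions. Every one of the 8 measured genes was lower at 3 h, in WT and in Nr4a-TKO. On the WT arrays 5 of the 8 were more than 2-fold lower (S100a4, S100a6, S100a10, Anxa6 and Lgals3) and none was higher, while 8.57% of the 23172 genes tested were more than 2-fold lower, 8.42% more than 2-fold higher and 17.0% were past 2-fold in either direction. On the Nr4a-TKO arrays 4 of the 8 were more than 2-fold lower (S100a4, S100a6, S100a10 and Anxa6), beside 8.0% of 23648 genes lower, 7.8% higher and 15.8% past 2-fold in either direction. The median log2 difference over the 8 genes was -1.44 in WT and -1.12 in Nr4a-TKO, where the medians over all genes tested were -0.05 and -0.02. Of all genes tested, 53.8% were below 0 in WT and 51.2% in Nr4a-TKO. An array does not tell fewer cells with a transcript from less transcript per cell.

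**Figure D1:**
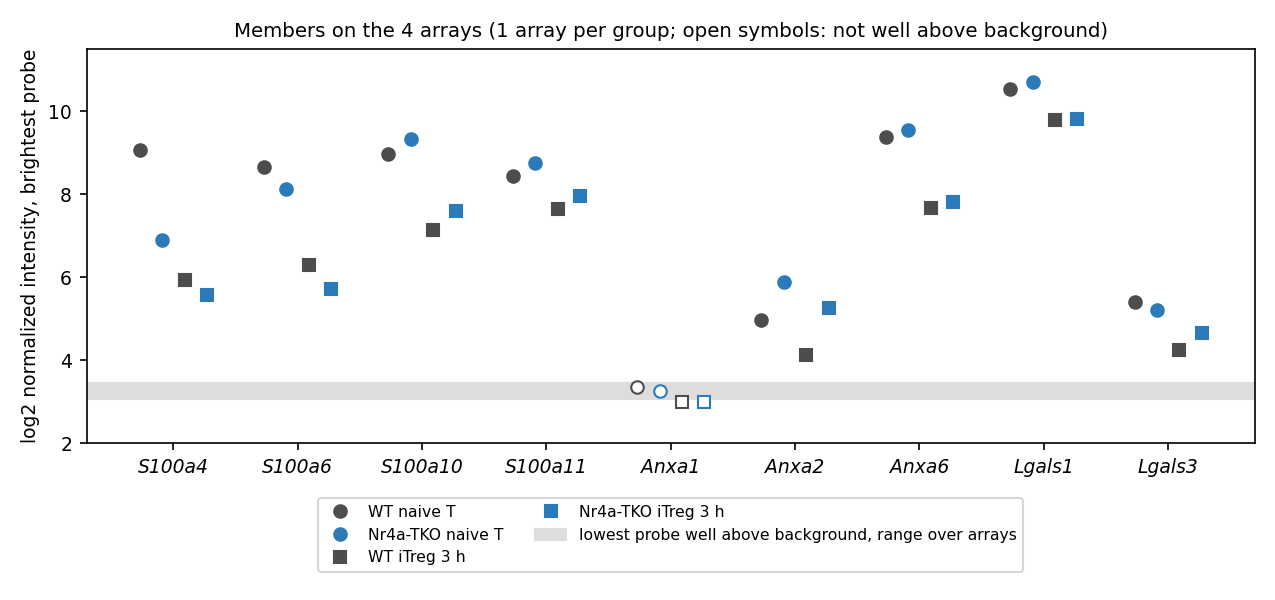
The log2 normalized intensity of the brightest probe of each gene (vertical axis) on the 4 arrays, with WT in grey, Nr4a-TKO in blue, naive T as circles and iTreg 3 h as squares. The grey band spans the lowest values well above background, 3.07 to 3.45. Within each genotype the square lies below the circle for every measured gene, and Anxa1 alone has open symbols, which stand for values not well above background.

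S100a4 encodes a protein that binds non-muscle myosin and is linked to cell movement. Its single probe (mm9 chr3:90409842-90409902) gave 9.07 in WT and 6.90 in Nr4a-TKO naive cells, and at 3 h 5.94 in WT and 5.58 in Nr4a-TKO. The WT naive array stood well above the others. In WT, S100a4 was 8.75-fold lower at 3 h (log2 difference -3.13, with an SD of 0.18 for single spots of like brightness), the largest difference between the stages among the 9 genes. In Nr4a-TKO the difference between the stages was 2.51-fold (-1.33). The decrease was thus smaller in Nr4a-TKO than in WT by 1.80 on the log2 scale, and by 1.60 in the setting that gave the lowest value, an offset of 50 in the background correction. With that offset, the difference between the stages was -2.40 in WT and, no longer past 2-fold, -0.80 in Nr4a-TKO.

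S100a6, or calcyclin, a protein of growing and moving cells, lies a short way from S100a4, with S100a5 between them. Its probe (mm9 chr3:90418160-90418219) gave 8.67, 8.12, 6.30 and 5.72 on the 4 arrays. Both iTreg arrays lay below both naive arrays, and within each stage the array labelled Nr4a-TKO was slightly lower. The difference between the stages was 5.16-fold in WT (-2.37) and 5.30-fold in Nr4a-TKO (-2.40), so the changes of the genotypes differed by -0.04, less than the SD of repeated spots.

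S100a10 is the S100 protein that joins Anxa2 at the plasma membrane and, unlike most of the family, does not need calcium for its active shape. Its brightest probe gave 8.99, 9.34, 7.13 and 7.60, and its second probe 7.41, 7.89, 5.70 and 6.47. At both probes the iTreg arrays were lower than the naive arrays and the arrays labelled Nr4a-TKO were higher than the WT array of their stage. The difference between the stages at the brightest probe was 3.61-fold in WT (-1.85) and 3.32-fold in Nr4a-TKO (-1.73), and at the second probe -1.71 and -1.42. S100a11, which pairs with annexins at membranes, gave 8.45, 8.76, 7.65 and 7.96 at its single probe. It was lower at 3 h by the same amount in both genotypes, with log2 differences of -0.80 and -0.80, short of 2-fold.

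The S100 genes stand in a row on chromosome 3, and of the genes nearest to S100a4, S100a6 was lower at 3 h as well, while S100a2, S100a3 and S100a5 differed by less than 2-fold. In the order of the RefSeq table, S100a3, S100a2, S100a4, S100a5 and S100a6 follow each other with 0 other coding genes between them. Between the stages in WT, S100a3 differed by 0.33, S100a2 by -0.30, S100a4 by -3.13, S100a5 by -0.13 and S100a6 by -2.37. Between the naive arrays, S100a4 differed by -2.16, S100a6 by -0.54, and S100a3, S100a2 and S100a5 by 0.17, -0.34 and -0.04. S100a13, an S100 gene beyond S100a3 in that row, was lower at 3 h by -1.46 in WT and -1.68 in Nr4a-TKO. S100a11 and S100a10 are next to each other further along the chromosome, with 54 coding genes between S100a11 and S100a7l2, the S100 gene before it.

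Anxa6, a large annexin of the plasma membrane and endosomes, gave 9.39, 9.56, 7.67 and 7.81 at its brightest probe. The naive arrays were close to each other, as were the iTreg arrays. The difference between the stages was 3.31-fold in WT (-1.73) and 3.35-fold in Nr4a-TKO (-1.74). A second probe of Anxa6, designed on an Ensembl transcript, gave 5.61, 6.10, 3.69 and 4.08. Its value on the array of WT iTreg 3 h was not well above background, so it was at least 3.79-fold lower there than on that of WT naive T, and in Nr4a-TKO it was lower by -2.02.

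Anxa2, which binds actin and phospholipid and forms the membrane complex with S100a10, was dimmer. Its brightest probe gave 4.96, 5.88, 4.13 and 5.26, with both arrays labelled Nr4a-TKO above both WT arrays. It was lower at 3 h by -0.83 in WT and -0.62 in Nr4a-TKO, neither past 2-fold. The WT difference depended on the background correction. It was past 2-fold after scaling to the 75th percentile (-1.575) and in the deposited table (-1.56), and -0.27 with an offset of 50. A second probe, whose target spans 775 bases of the genome, gave 4.10, 4.26, 3.10 and 4.23, of which the value of WT iTreg 3 h was not well above background. That probe was at least 1.59-fold lower at 3 h in WT and differed by -0.04 in Nr4a-TKO. A further probe was well above background only on the array of Nr4a-TKO naive T, with 3.66.

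Anxa1, the annexin of the resolution of inflammation that acts through formyl peptide receptors, had 4 probes and 13 spots, none well above background on any array. One of its probes was printed on 10 spots, and their mean in naive cells was 2.54 in WT (SD 0.52, 9 spots used) and 2.86 in Nr4a-TKO (SD 0.36, 10 spots), and at 3 h 2.60 in WT (SD 0.43, 9 spots) and 2.44 in Nr4a-TKO (SD 0.35, 9 spots). The ranges of these spots overlapped between all arrays, and no difference is given for Anxa1.

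Lgals1 encodes galectin-1, which can bind CD45 and other glycoproteins of T cells. Its probe gave 10.53, 10.72, 9.80 and 9.81. It was lower at 3 h by -0.73 in WT and -0.91 in Nr4a-TKO, both short of 2-fold and several times the SD of repeated spots of like brightness (0.17 and 0.16).

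Lgals3 encodes galectin-3, which can form lattices on branched N-glycans, and its probes disagreed on size. The brightest, printed once, gave 5.42, 5.22, 4.26 and 4.65, a difference between the stages of 2.23-fold in WT (-1.16) and of -0.57 in Nr4a-TKO. The other was printed on 10 spots per array and covers a target that spans 817 bases. Its spots had a mean in naive cells of 4.37 in WT (SD 0.17, 10 spots) and 4.72 in Nr4a-TKO (SD 0.18, 10 spots), and at 3 h of 4.04 in WT (SD 0.25, 9 spots) and 4.53 in Nr4a-TKO (SD 0.24, 10 spots). The differences between the stages were -0.32 (SE over spots 0.0990) in WT and -0.19 (SE 0.0943) in Nr4a-TKO, and the spots of the stages overlapped in range. The call past 2-fold in WT at the brightest probe ended with an offset of 50 (-0.42) and without background correction (-0.72).

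**Figure D2:**
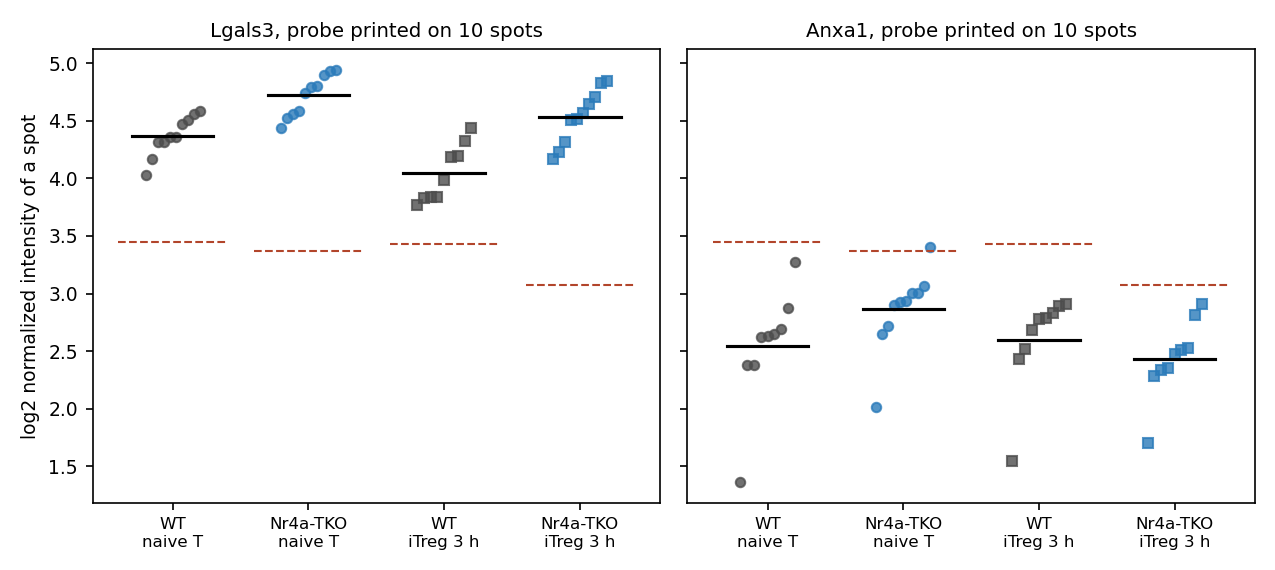
The log2 normalized intensity of each spot (vertical axis) of the Lgals3 and Anxa1 probes printed 10 times, on the 4 arrays. Black bars are means and dashed red lines the lowest value of a probe well above background on that array. Every Lgals3 spot lies above its line and the ranges overlap in each of the 4 comparisons of stages or genotypes, while no Anxa1 spot was well above background.

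The second comparison was between the genotypes. On the naive arrays, S100a4 alone among the 8 measured genes was more than 2-fold apart. It was lower with the Nr4a-TKO label. Of all 23082 genes tested, 1.69% were more than 2-fold lower, 1.92% more than 2-fold higher and 3.6% past 2-fold in either direction. At 3 h, Anxa2 alone was more than 2-fold apart, higher in the sample labelled Nr4a-TKO, where 1.75% of 23411 genes were more than 2-fold higher, 1.93% more than 2-fold lower and 3.68% past 2-fold in either direction. The median difference over the 8 genes was 0.18 for the naive arrays and 0.23 at 3 h, with medians over all genes tested of -0.02 and 0.00. Both the comparisons of stages and those of genotypes use the same 4 arrays, so their values are not independent of each other.

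S100a4 differed by -2.16 between the naive arrays, a level 4.47-fold lower with the Nr4a-TKO label (SD of repeated spots of like brightness 0.17). At 3 h, where both arrays were low, the difference was -0.36 (SD 0.21). S100a6 was also lower on the arrays labelled Nr4a-TKO, by -0.54 in naive T cells and -0.58 at 3 h (SD 0.16 and 0.21), neither past 2-fold. Of the measured genes, S100a4 and S100a6 were the pair below WT at both stages.

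Markers of cells that carry S100a4 were read beside this difference. Of the 12 myeloid markers, 8 were detected on every array and Adgre1, a macrophage receptor, on none. Between the naive arrays, Cd14, the lipopolysaccharide co-receptor, was lower on the array labelled Nr4a-TKO by -2.69 and Tyrobp, an adaptor of myeloid and NK receptors, by -0.85, while Lyz2 (lysozyme) was at or near the limit of detection on both. The median over the 11 measured myeloid markers was 0.06, the range ran from -2.69 to 0.50, and the log2 of their summed level was 15.87 on the WT array and 15.92 on the Nr4a-TKO array, a sum set mainly by Itgam (15.06 and 15.14) and Csf3r (14.41 and 14.43), which were far brighter on these sorted CD4+ cells than most other myeloid markers. The sum is therefore a poor measure of myeloid cells. The neutrophil genes S100a8 and S100a9 were lower on the Nr4a-TKO naive array by -0.66 and -0.60, with S100a8 dim on both naive arrays (4.22 and 3.56). Of the 18 effector and memory T markers, 16 could be compared, with a median of -0.01 and a range from -1.56 for Klrg1, a bound, to 1.03 for Id2. Eomes, a factor of memory and cytotoxic cells, was lower by -1.36. The log2 summed level of this list was 13.13 on the WT naive array and 13.30 on the Nr4a-TKO naive array. The 8 Treg markers had a median of -0.46 and a range from -1.37 to 0.97. In it Foxp3 was 7.41 on the WT naive array and 6.10 on the Nr4a-TKO naive array, though both sorts were gated as Foxp3-, and the log2 summed level of the list was 10.63 and 10.67. The part of such cells in the S100a4 difference was not tested.

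Anxa2 was higher on the arrays labelled Nr4a-TKO at both stages, by 1.89-fold in naive T cells (0.92, SD 0.21) and 2.19-fold at 3 h (1.13, SD 0.28). Its second probe gave 0.16 in naive T cells and at least 1.74-fold at 3 h, in the same direction and smaller in naive T cells. The size depended on the background correction. At 3 h the brightest probe gave 0.39 with an offset of 50 and 0.69 without background correction, both under 2-fold, and 1.84 after scaling to the 75th percentile. In naive T cells that scaling gave 1.21, past 2-fold. B cell markers were read beside Anxa2, and all 8 were detected throughout. With the Nr4a-TKO label 7 of 8 were higher in naive T cells (Cd79b, a part of the B cell receptor, was lower by -0.56) and 8 of 8 at 3 h, by unlike amounts. Their median difference was 0.59 in naive T cells and 0.81 at 3 h, and the log2 of their summed level was 10.53 and 11.08 on the naive arrays and 10.15 and 11.02 at 3 h. Among these, H2-Aa, a chain of MHC class II, differed by 1.61 and 1.34. The B cell factor Pax5 differed by only 0.08 and 0.11, and Ms4a1 by 0.10 and 0.07. Among the 16 effector and memory T markers compared at 3 h, 10 were higher with the Nr4a-TKO label, with a median of 0.32, a range from -0.65 to 1.55 and log2 summed levels of 12.03 in WT and 12.76 in Nr4a-TKO. Between the naive arrays, 6 of the 16 compared were higher with that label and 10 lower. The adhesion receptor gene Cd44 differed by 0.22 in naive T cells and 1.55 at 3 h. The chemokine receptor gene Cxcr3 differed by -0.59 in naive T cells and 1.30 at 3 h, and the integrin gene Itgb1 by 0.94 and 0.58. The part of these cell types or states in the Anxa2 difference was not tested.

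S100a10, the partner of Anxa2, was higher on the arrays labelled Nr4a-TKO by 0.35 and 0.47 at its brightest probe and by 0.48 and 0.77 at the second. S100a11 was higher by 0.31 at both stages. The galectin-1 gene Lgals1 differed by 0.19 and 0.01, and Anxa6 at its brightest probe by 0.16 and 0.15. For Lgals1 and this Anxa6 probe, the values were within about the SD of a difference between repeated spots of like brightness, 0.16 to 0.18. The differences of S100a10 and S100a11 were larger than this SD. It was 0.16 and 0.19 for S100a10 at its brightest probe and 0.18 at both stages for S100a11. The second, dimmer probe of Anxa6 was higher with the Nr4a-TKO label by 0.49 in naive T cells and by at least 0.39 at 3 h. For Lgals3 the probes differed in direction between the naive arrays, with -0.20 at the brightest and 0.35 (SE over spots 0.0799) at the probe of 10 spots, and shared it at 3 h with 0.39 and 0.49 (SE 0.111).

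**Figure D3:**
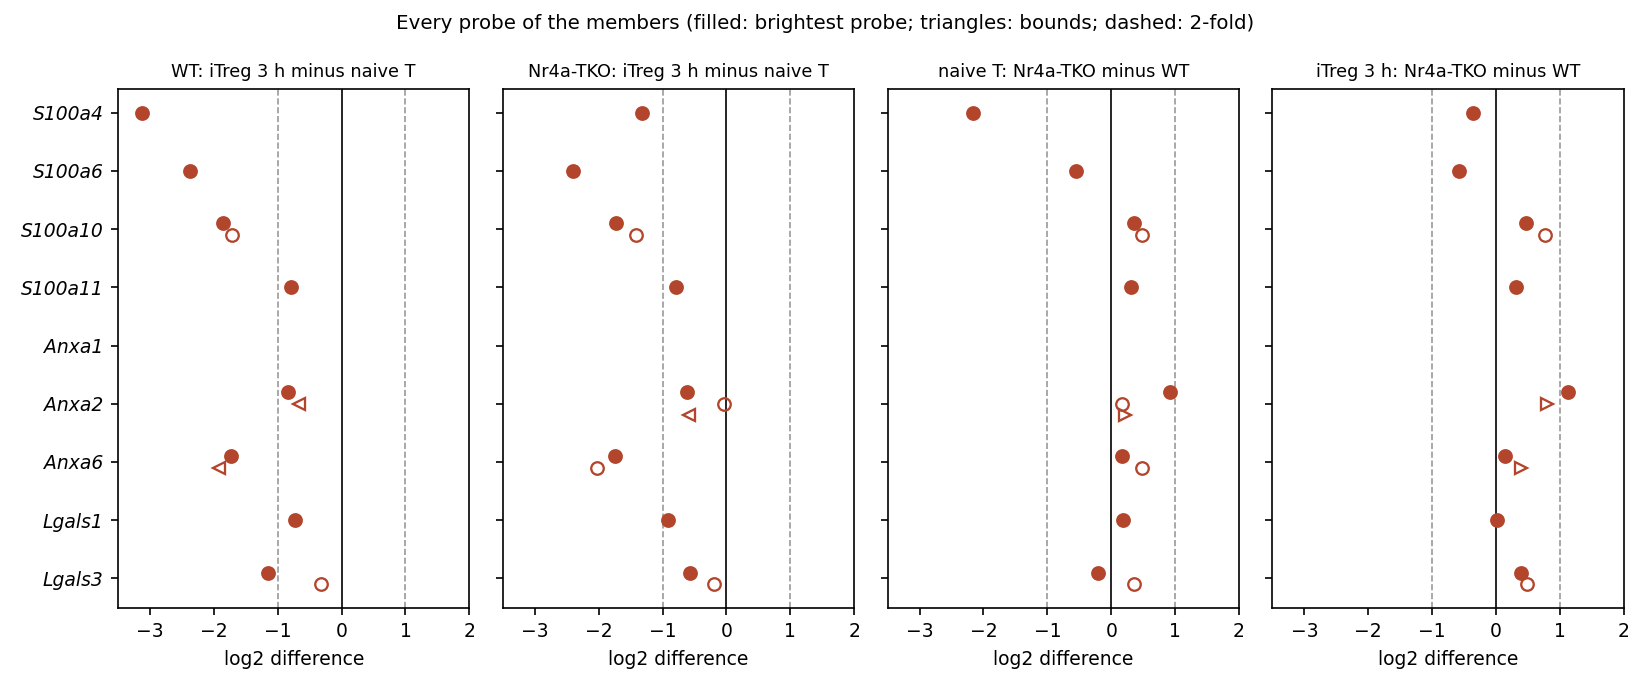
The log2 difference (horizontal axis) at every measured probe of the genes in the 4 comparisons, with brightest probes filled, other probes open, bounds as triangles and 2-fold as dashed lines. All values of the stage comparisons lie below 0, S100a4 stands apart at -2.16 between the naive arrays, and Anxa2 is the rightmost gene in both comparisons of genotypes.

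Other genes of these families gave a fuller view of the stage difference. Of 31 further S100, annexin and galectin genes, counted with the binding-protein genes S100pbp and Lgals3bp and without S100a2, which the list did not hold, 21 were detected on every array and 5 on none. On the WT arrays 7 of the 24 that could be compared were more than 2-fold lower at 3 h and 0 were higher, and on the Nr4a-TKO arrays 6 of 26 were lower and 0 higher. Of all genes tested, 8.57% were more than 2-fold lower and 8.42% higher in WT, and 8.0% lower and 7.8% higher in Nr4a-TKO. The medians of the family genes were -0.14 and -0.17. Between the genotypes, 0 of 26 were past 2-fold in naive T cells and 0 of 23 at 3 h. The shares of all genes were 3.6% and 3.68%, so counts of 0 in lists this short are near those shares.

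Galectin genes held the largest differences of this wider list. Lgals9 (galectin-9), a ligand of the inhibitory receptor Tim-3, gave 8.20, 8.27, 5.61 and 5.79, lower at 3 h by -2.60 in WT and -2.48 in Nr4a-TKO. Lgals4 was lower by -2.25 and -2.00. Whether its probes can also read the similar gene Lgals6 was not tested. Lgals8 was lower by -1.90 and -1.74 at its brightest probe, with 0.18 and -0.20 at its second. Among the annexins Anxa5, which binds phosphatidylserine, differed by -1.08 in WT and -0.40 in Nr4a-TKO. S100a9 was lower by -1.36 in WT and -0.88 in Nr4a-TKO. The remaining calls rested on bounds, for Anxa9 in WT and S100b and Lgals2 in Nr4a-TKO.

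**Figure D4:**
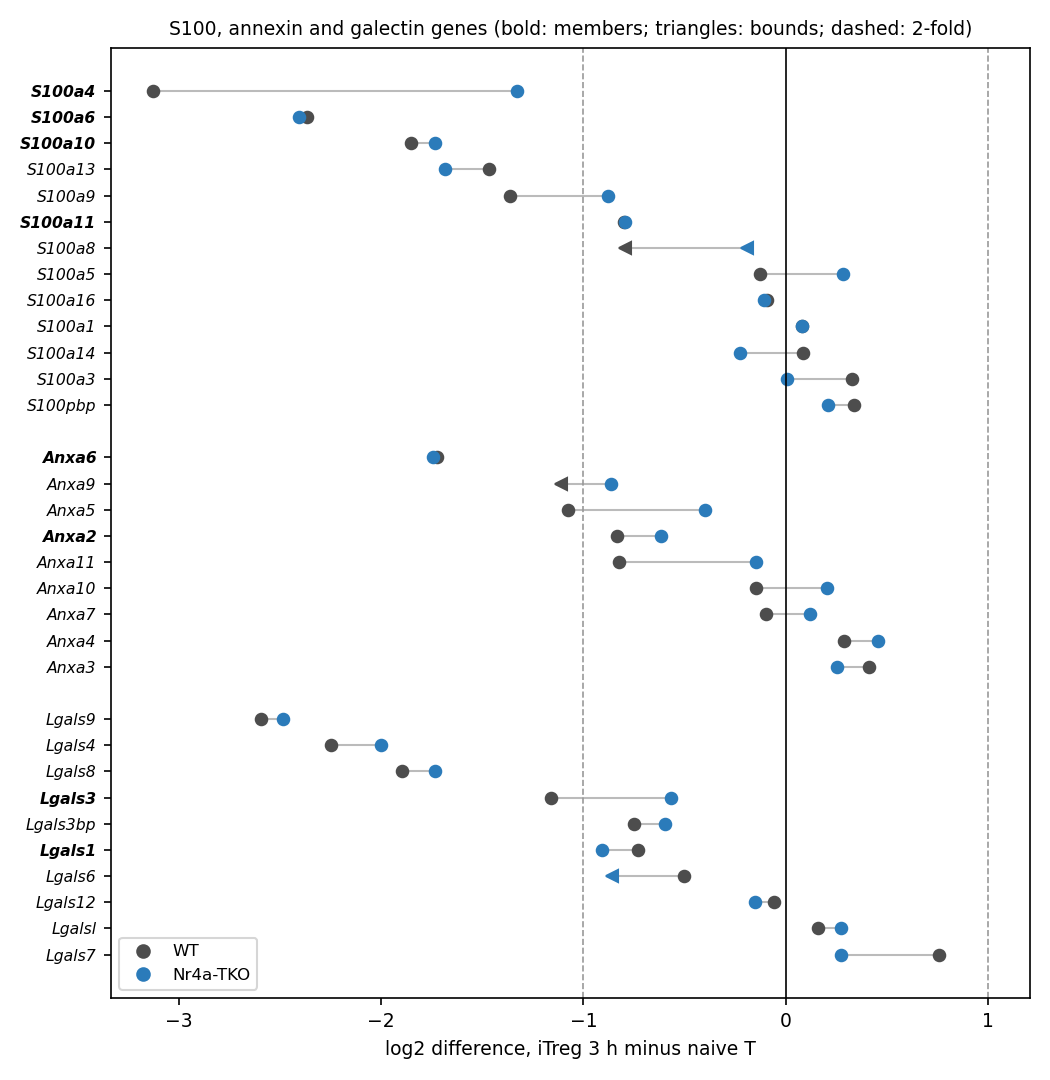
The log2 difference between iTreg 3 h and naive T (horizontal axis) for each S100, annexin and galectin gene of the lists measured in both genotypes, with WT in grey, Nr4a-TKO in blue, bounds as triangles and the 9 genes in bold where measured. No gene passes 2-fold on the higher side, and the widest gap between the genotypes is that of S100a4, from -3.13 to -1.33.

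Partner genes were read as a list of 16, of which 12 were well above background on the 4 arrays. Fpr1 and Fpr3, formyl peptide receptor genes, Plat, which encodes tissue plasminogen activator, and Havcr2, which encodes Tim-3, were not well above background on any. The largest differences in the list were those of Ahnak, the giant scaffold protein that binds the complex of S100a10 and Anxa2 under the plasma membrane. Its brightest probe gave 9.37 in WT and 11.27 in Nr4a-TKO naive cells, and at 3 h 6.29 in WT and 8.58 in Nr4a-TKO. Within each genotype the iTreg array was lower, and within each stage the array labelled Nr4a-TKO was higher. The differences were -3.07 and -2.69 between the stages and 1.90 and 2.28 between the genotypes. The other 2 probes of Ahnak were higher on the Nr4a-TKO naive array by 1.30 and 1.04, and at 3 h by at least 0.85 and 1.53 on the log2 scale. Between the stages those probes gave bounds of -0.70 and -0.49 in WT, and measured differences of -1.15 and 0.00 in Nr4a-TKO. Anxa2, S100a10 and Ahnak were all higher on the arrays labelled Nr4a-TKO at both stages, with values of 0.92, 0.35 and 1.90 in naive T cells and 1.13, 0.47 and 2.28 at 3 h.

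Other partners past 2-fold in some comparison were Alcam, Cacybp, Sugt1 and Ager. Alcam, an adhesion molecule that galectins bind, was higher at 3 h by 0.73 in WT and 1.84 in Nr4a-TKO. It was also above WT with the Nr4a-TKO label, by 0.55 in naive T cells and 1.66 at 3 h. A second probe of Alcam, detected on every array, gave 1.61 and 1.74 between the stages and 1.52 and 1.66 between the genotypes. Cacybp, the calcyclin-binding protein that attaches to S100a6, was higher at 3 h by 1.20 and 1.28, opposite to S100a6 itself. Sugt1, another protein that binds S100a6, was lower by -1.07 in WT and -0.42 in Nr4a-TKO at its brightest probe. Its other probes gave -0.64 and -0.53 in WT, short of 2-fold, and both -0.20 in Nr4a-TKO. Ager, the receptor RAGE for several S100 proteins, was lower by -1.36 and -0.87 at the brightest of its 7 probes, which ranged from -1.42 to -0.13 in WT and from -0.87 to 0.01 in Nr4a-TKO, where 5 of them lay between -0.14 and 0.01. In WT 1 of the 12 measured partners was more than 2-fold higher at 3 h and 3 were lower, and in Nr4a-TKO 2 were higher and 1 lower. Between the genotypes 1 was more than 2-fold higher on the array labelled Nr4a-TKO in naive T cells and 2 at 3 h, and 0 were lower at either stage. Of all genes tested, 17.0% were past 2-fold in either direction between the stages in WT and 15.8% in Nr4a-TKO. Between the genotypes the shares were 3.6% in naive T cells and 3.68% at 3 h.

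**Figure D5:**
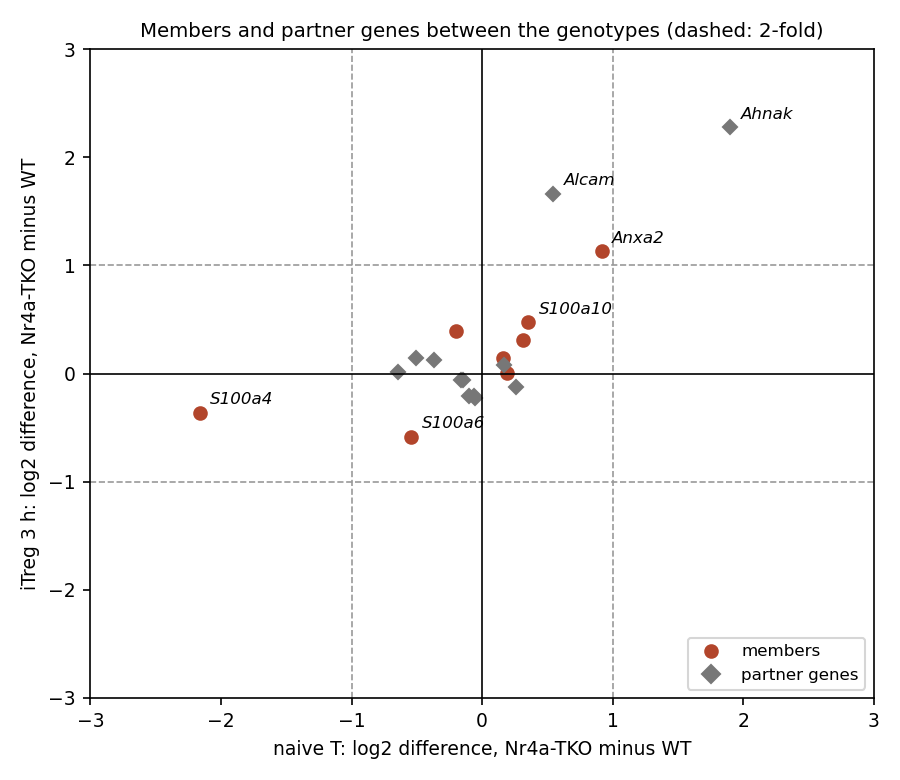
The log2 difference between Nr4a-TKO and WT in naive T cells (horizontal axis) and at 3 h (vertical axis) for the measured members (red circles) and their partner genes (grey diamonds), with 2-fold as dashed lines. Ahnak lies furthest to the upper right at 1.90 and 2.28, with Anxa2 at 0.92 and 1.13 on the same side, while S100a4 lies far to the left at -2.16 and near 0 on the vertical axis.

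Lists of T cell genes gave a scale for the stage difference. All 10 naive T markers were detected throughout, and 6 in WT and 7 in Nr4a-TKO were more than 2-fold lower at 3 h, with medians of -1.74 and -1.80. The Anxa6 difference in WT, -1.73, was near the median of that list, and the S100a4 difference in WT, -3.13, was larger in size than that median. T cell identity genes were lower at 3 h too, 7 of 8 in each genotype, with medians of -0.57 and -0.86 and values for Cd4 of -1.03 and -1.53. The effector and memory T markers had medians of -0.40 in WT and -0.41 in Nr4a-TKO.

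For members whose brightest probe spanned at least 1 on the log2 scale, the 3 genes with the most similar profile over the 4 arrays were found by the distance between profiles centred on their mean, among 15645 genes. Such likeness rests on 4 points that share their arrays. Nearest to Anxa2 were Nrp1, Timp2 and H2-Q5, at distances of 0.074, 0.114 and 0.135. H2-Q5, an MHC class I gene, gave 10.03, 10.87, 9.03 and 10.17. Nearest to S100a4 were Lypd6b, H2bc18 and Lhfpl3, at 0.364, 0.412 and 0.578, the largest distances for any member. Lypd6b gave 7.53, 5.14, 4.65 and 4.20, highest on the array of WT naive T like S100a4. For S100a6 they were Gm15708, Add3 and Vipr1 (0.136, 0.194 and 0.238). For S100a10 they were Tbc1d5, Slc25a40 and Herc3 (0.100, 0.144 and 0.166), and for S100a11 Atp8b2, 4921531C22Rik and Uvrag (0.057, 0.063 and 0.067). For Anxa6 they were Prkacb, Parp3 and Gm12185 (0.043, 0.057 and 0.069), and for Lgals3 Rgl2, Slc25a11 and Unc119 (0.050, 0.068 and 0.078).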

How the data were processed

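The authors deposited, for each array, the Feature Extraction 11.5.1.1 output with the mean and local background intensity of every spot, a processed intensity and flags, with probe coordinates on mm9. A table of log2 values was deposited too. The methods name RMA in GeneSpring, but these values matched processed intensities that had been scaled to each array's 75th percentile. The columns have medians of -2.16, -2.17, -2.33 and -2.28, in the order of the arrays above, and no gene centring.

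The limma package (version 3.58.1, under R 4.3.3, with version 1.17.8 of data.table) gave the values used here: mean intensities were corrected by normexp (offset 0) for the local background, quantile-normalized over the 4 arrays, put on the log2 scale and averaged over the spots of each probe. Controls and outlier-flagged spots were left out. Such processing stretches differences of dim probes, and the size of the offset sets how much. Probes were named with the RefSeq table of GRCm38.p6, and 4831 of 56605 carry no gene name. A probe counted as well above background where at least 0.5 of its spots did. A dim probe was raised to its array's floor, the lowest level seen among probes above background, and the difference is then a bound, compared only where 1 of the 2 arrays was well above background. Counts used a 2-fold threshold. The SD for spots of like brightness comes from repeated probes near the level of the gene. Python 3.11.15, pandas 2.3.3, numpy 2.4.6 and matplotlib 3.10.9 served for the rest.

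The members and gene lists were chosen with earlier results of these data known. Named are all members, the targeted genes, and family and partner genes past 2-fold on arrays well above background. Up to 3 genes of a marker list and the nearest profiles are named too. S100a8, Cd79b, Ms4a1 and the neighbours of S100a4 were named after their values were seen. So were genes at the ends of a range and genes that rested on bounds. The counting was tested on simulated data. Alternatives were processed intensities scaled to the 75th percentile, an offset of 50, no background correction, the deposited table, the mean of all probes, a stricter filter, no filter, and 1.5-fold and 3-fold thresholds. Arrays at 24 h and sequencing data were not analysed here.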

Additional observations from a re-analysis of the deposited data

How the results depend on the processing

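No difference of a member past 2-fold changed sign under any alternative run, and the S100a4 difference between the naive arrays stayed between -1.79 and -2.16. Counts of members past 2-fold moved with the threshold and the background. At 1.5-fold they were 8 for the WT change, 7 for the Nr4a-TKO change and 2 between the naive arrays, beside 34.5%, 33.1% and 10.4% of all genes past 1.5-fold, and at 3-fold the count at 3 h between genotypes was 0, beside 1.45% of all genes. That count was also 0 with an offset of 50 and without background correction. Between the naive arrays it was 2, with Anxa2 added, after scaling to the 75th percentile and in the deposited table. In these settings the count for the WT change was 6, again with Anxa2 added, beside 21.6% and 21.5% of all genes. With an offset of 50 and without background correction the count for the WT change was 4, beside 8.16% and 11.4% of all genes. The median WT change over the members was -1.63 after that scaling, -1.11 with an offset of 50, -1.20 without background correction and -1.16 with no filter, where Anxa1 enters, and the median Nr4a-TKO change was -0.84 with an offset of 50 and -0.91 with no filter. For Anxa2 the Nr4a-TKO change minus the WT change was 0.22 in the main setting and 0.63 after scaling to the 75th percentile. The deposited table, which has the same scaling, gave 0.63 too. With an offset of 50 it was -0.03 and without background correction -0.02, so its sign depended on the setting. For Lgals3 it was 0.59 in the main setting, 0.85 after that scaling and 0.21 with an offset of 50. The cause of these differences was not tested. Genes past 2-fold on the naive arrays were 3.61% of all genes in the main setting, 5.31% after scaling and 0.814% with an offset of 50, so that the background moves with the setting as well. No paired analysis was possible because each group holds 1 array, and for the same reason no replicate could be left out. Signal over background limits Anxa1, which has no level, and the dimmer probes of Anxa2.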
